A study of Chromochloris zofingiensis with 18 samples.

Results

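The comparison set cultures of the green microalga Chromochloris zofingiensis that had received sulfur again for 12 h (SR-12 h) against cultures in their first 24 h without sulfur (SS-24 h). Its members were chosen by sample label, and all genes were compared. Of the 18 samples of the series, 6 belong to it, 3 biological replicates in each of the 2 conditions, and 3 further samples taken at 0 h serve as a common reference point. All were wild-type cultures of strain ATCC30412, with no transgene, grown in illuminated columns with CO2-enriched air. At 0 h, exponentially growing cells had just been washed and moved to a Kuhl medium whose magnesium sulfate was replaced by magnesium chloride. SS-24 h cells were sampled after 24 h in that medium. SR-12 h cells had spent 48 h in it and were sampled 12 h after sulfur was returned, so they did not follow directly on the SS-24 h cells. The sample records describe this return as transfer to fresh sulfur-containing medium, the paper as sodium sulfate added to the culture, and the data do not settle which was done. Where the cells were moved, new medium and restored sulfur cannot be told apart. Time since first transfer also differs between the conditions and cannot be told apart from the sulfur supply.

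Sulfur enters a green alga as sulfate, which transporters take up and plastid enzymes reduce and build into cysteine and methionine. Cells without it cannot keep up protein synthesis, and green algae are known to dismantle part of their photosynthetic apparatus and to store carbon as triacylglycerol (TAG). C. zofingiensis also makes the red ketocarotenoid astaxanthin under such stress. The paper reports that chlorophyll content and thylakoid membranes recovered once sulfate was returned.

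Levels are FPKM, fragments scaled by transcript length and by the number mapped, so they are shares of a library corrected for gene length. A change in RNA per cell is not measured, and fewer cells of a type and less RNA per cell cannot be told apart. A log2 fold change is SR-12 h minus SS-24 h on the log2(FPKM + 1) scale, which understates changes of low genes, with limma's standard error (SE). A fold quoted for a gene is the ratio of mean FPKM. To be called, a gene needed a log2 fold change of 1 or more, up or down, and a Benjamini-Hochberg adjusted p, over all genes, of at most 0.05. Replicate values are given in the order 1, 2, 3. The libraries of the 2 conditions were alike in size, with 14619 to 14671 genes listed at SR-12 h and 14636 to 14660 at SS-24 h. Their relative depth, read from the steps between low FPKM values, lay between 1 and 1.032 times that of SS-24 h replicate 1. The 10 highest genes took 8.75 to 9.32% of summed FPKM at SR-12 h and 7.53 to 7.81% at SS-24 h. Across genes, the r of log2(FPKM + 1) was 0.993 to 0.994 between replicates and 0.913 to 0.937 between the 2 conditions. FPKM summed over plastid-encoded genes was 143.2, 51.2 and 30.4 at SR-12 h, against 27.9, 31.8 and 19.7 at SS-24 h, with SR-12 h replicate 1 far above the others. These libraries were poly-A selected, and the part of plastid RNA in the results was not tested.

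The 2 conditions were set against each other because they had been proposed as the closest of the series to 0 h. The counts against 0 h therefore describe this choice and are not an independent result. Against 0 h, 2041 of 15220 genes (13.4%) were called at SR-12 h and 1743 (11.5%) at SS-24 h, whereas 4775 (31.4%) differed after 6 h of starvation, 2942 (19.3%) after 12 h and 3151 (20.7%) after 48 h. Set against each other, they still differed in 2380 genes (15.6%). Of these, 991 (6.51% of all genes) were higher at SR-12 h and 1389 (9.13%) were lower. These 2 shares are the background for every count of called list members below. Against 0 h the shares were 4.99% higher and 8.42% lower at SR-12 h, and 4.57% higher and 6.89% lower at SS-24 h. Log2 fold changes ran from −5.63 to 4.05, and the median over all genes was −0.008. Called falls outnumbered called rises at each size, with 360 genes at −2 or below and 98 at −3 or below, against 176 at 2 or above and 31 at 3 or above. In 2375 of the 2380 called genes the replicates of the conditions did not overlap. Over all genes, replicates did not overlap in 5016 genes (33%) that were higher and 5610 (36.9%) that were lower at SR-12 h. SS-24 h replicate 2 was the SS-24 h library nearest to the SR-12 h mean in 1600 of the called genes (67.2%), and without it 1055 genes were called higher and 1442 lower.

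**Figure D1:**
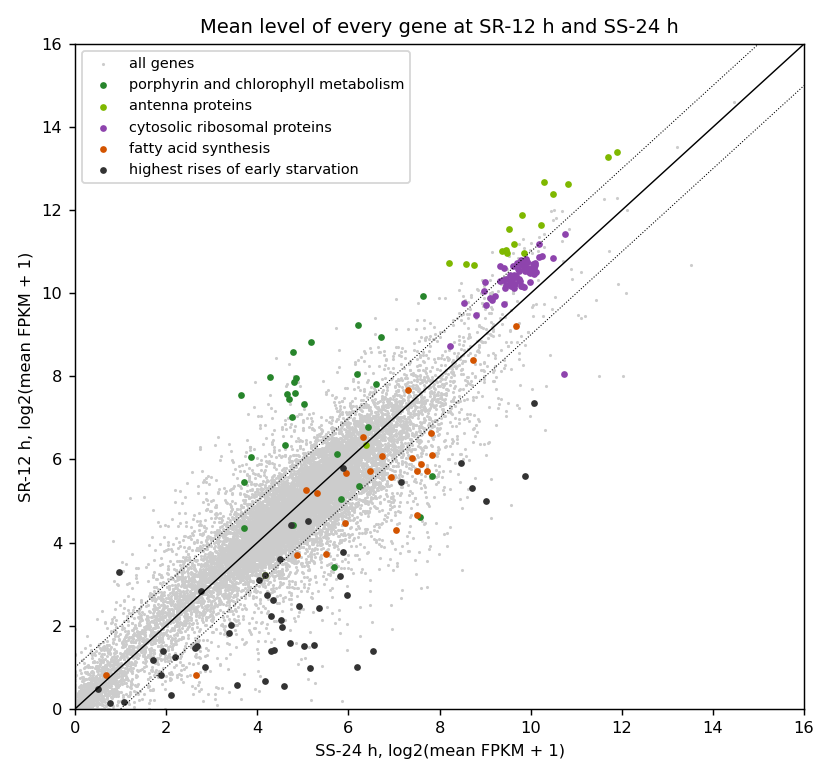
Mean level of each of 15220 genes at SR-12 h (vertical axis) and SS-24 h (horizontal axis), both as log2(mean FPKM + 1); the solid line marks equal levels, the dotted lines a difference of 1, and colours mark 5 gene lists. Porphyrin and antenna genes lie mostly above the upper dotted line, cytosolic ribosomal proteins between the solid and the upper line, and the highest rises of early starvation mostly below the lower line.

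Genes of porphyrin and chlorophyll metabolism stood highest among the lists. Of 28 members, 19 rose, 3 fell and 6 were not called, and their median log2 fold change was 2.21 beside −0.01 for all genes. The list is the study's own, drawn from SR-12 h compared with SS-48 h, so it shares the SR-12 h samples and is not independent evidence of the direction. Its members took 0.621, 0.555 and 0.564% of summed FPKM at SR-12 h, against 0.165, 0.193 and 0.172% at SS-24 h and 0.295, 0.286 and 0.288% at 0 h. The summed SR-12 h level of these 28 genes was thus above that of both other conditions. It carries the same choice through SR-12 h and is not the level of the whole pathway. Only 3 of the members that rose carry a name in the tables used here, and these were picked for that reason after the values were seen.

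GSA (Cz11g23070), glutamate-1-semialdehyde aminomutase, makes 5-aminolevulinate, the first dedicated precursor of chlorophyll and heme. It stood at 644, 584 and 594 FPKM at SR-12 h, against 58.6, 93.5 and 68.6 FPKM at SS-24 h and 207, 196 and 218 FPKM at 0 h. The 3 conditions did not overlap, and 0 h lay between the other two. GSA was 8.26-fold higher after sulfur return, with a log2 fold change of 3.05 ± 0.14 (SE, adjusted p = 9e-11). CRD1 (Cz16g08310), the magnesium-protoporphyrin monomethyl ester cyclase that closes the fifth ring of chlorophyll, had 513, 469 and 486 FPKM at SR-12 h, against 85.2, 121.8 and 103.9 FPKM at SS-24 h. Its level at 0 h was 277, 277 and 279 FPKM, again in between, and its log2 fold change was 2.24 ± 0.11 (SE, adjusted p = 3.5e-10). Geranylgeranyl reductase (Cz02g35110), which makes the phytyl tail of chlorophyll, had 1033, 948 and 938 FPKM at SR-12 h, against 172, 236 and 184 FPKM at SS-24 h. That was a 4.93-fold difference, with a log2 fold change of 2.31 ± 0.14 (SE, adjusted p = 2.3e-09).

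The strongest rise in the list was that of Cz02g24270, a gene with no name in the tables used, at 199, 189 and 172 FPKM at SR-12 h, against 8.44, 15.2 and 10.9 FPKM at SS-24 h. This was 16.2-fold, a log2 fold change of 3.94 ± 0.19 (SE). The 3 members that fell, none of them named, had log2 fold changes from −2.96 to −2.22. SR-12 h was called above 0 h in 12 of the 28 genes (4.99% of all genes) and below it in 1 (8.42% of all genes), with a median difference of 0.89. Because the list was drawn through SR-12 h, these counts are not independent of the choice. SS-24 h was above 0 h in 4 (4.57% of all genes) and below it in 15 (6.89% of all genes), with a median of −1.17.

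**Figure D2:**
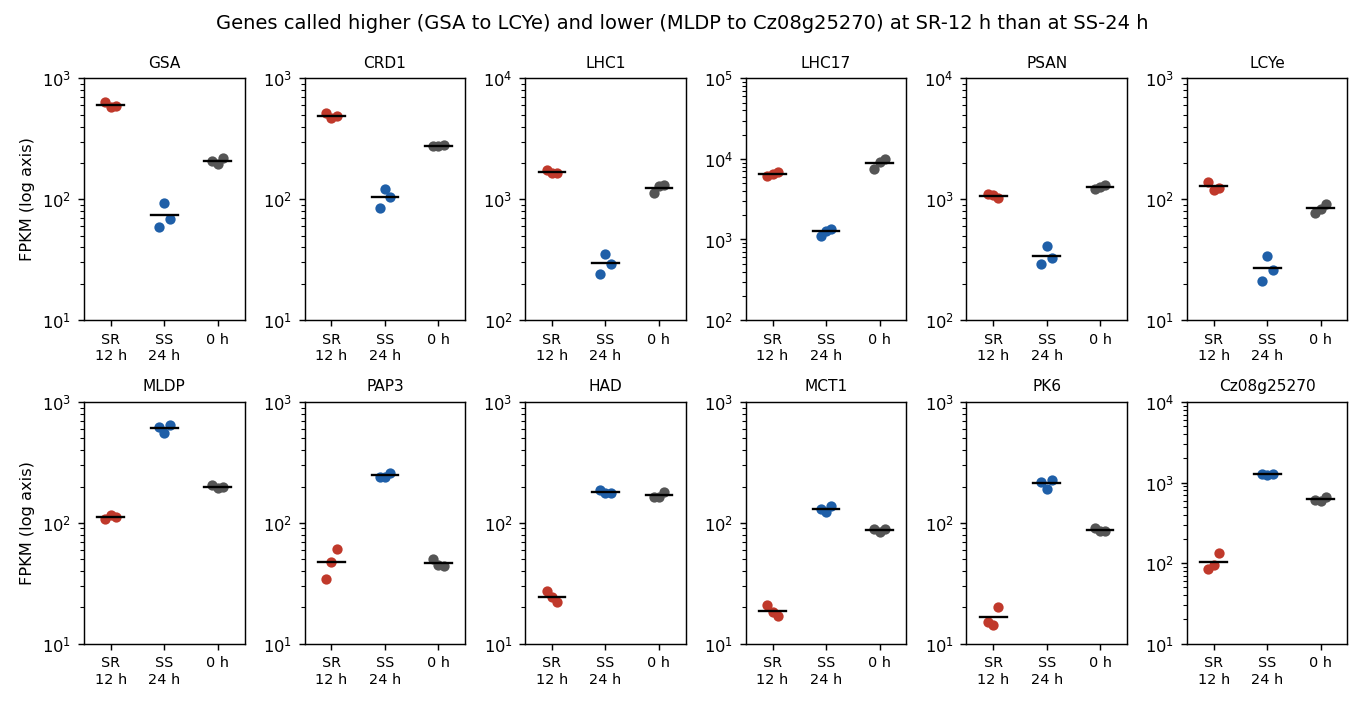
FPKM of 12 genes in each replicate (points) and their mean (lines) at SR-12 h, SS-24 h and 0 h, left to right, on log axes that differ between panels. The 6 genes of the upper row are higher in every SR-12 h replicate than in any SS-24 h replicate, and the 6 genes of the lower row are lower.

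Light-harvesting antenna proteins bind chlorophyll and feed energy to the photosystems. Of 18 antenna genes, 16 rose, none fell and 2 were not called, with a median log2 fold change of 1.63. They took 6.49, 6.42 and 6.71% of summed FPKM at SR-12 h, against 1.81, 2.32 and 2.13% at SS-24 h and 5.52, 6.03 and 6.12% at 0 h. The study chose this list on SS-6 h against 0 h, which shares no samples with the present comparison. LHC1, an antenna protein of photosystem I, had 1757, 1661 and 1655 FPKM at SR-12 h, against 240, 353 and 293 FPKM at SS-24 h, a 5.73-fold difference. Its log2 fold change of 2.53 ± 0.15 (SE, adjusted p = 2.2e-09) was the largest of the list, and 0 h replicates had 1128, 1277 and 1301 FPKM, below each SR-12 h replicate. LHC17, an antenna protein of photosystem II, had 6227, 6513 and 6816 FPKM at SR-12 h, against 1115, 1287 and 1369 FPKM at SS-24 h. Its SR-12 h replicates remained below the 7594, 9260 and 10079 FPKM of 0 h, although the difference from 0 h, −0.45, was not called. LHC18, its neighbour by gene number, had 10242, 10641 and 11310.3 FPKM at SR-12 h, against 3228, 4239 and 3959 FPKM at SS-24 h. LHC16 reached a mean of 10000 FPKM at SR-12 h, against 3320 FPKM at SS-24 h. Near-identical family members share reads that RSEM divides between them, so levels of single antenna genes are less certain than the sum.

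LHCSR and LHC11 were the 2 antenna genes not called. LHCSR, the stress-related antenna protein that dissipates excess light energy, had 80.2, 84.3 and 77.1 FPKM at SR-12 h, against 76.9, 85.9 and 85.0 FPKM at SS-24 h, with overlapping replicates. Both conditions were below the 272 to 300.1 FPKM of 0 h, with called differences of −1.83 at SR-12 h and −1.79 at SS-24 h. The sign of the small SR-12 h to SS-24 h difference (−0.03) turned to 0.07 under median-ratio scaling and 0.09 under quantile normalization. LHC11 had 8.33, 8.95 and 7.59 FPKM at SR-12 h, against 18.4, 18.6 and 13.6 FPKM at SS-24 h, and a log2 fold change of −0.93, just short of a call. It passed under 4 of the alternatives, at −1.0 to −1.07. Against 0 h, no antenna gene was called higher and 1, LHCSR, was called lower at SR-12 h, while at SS-24 h 17 were lower and 1, LHC11, was higher.

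Nuclear-encoded photosystem subunits rose with the antenna. All 10 photosystem I subunits on the list were called higher, with log2 fold changes from 1.10 to 1.66 and a median of 1.32. PSAN had the largest change, at 1115, 1082 and 1021 FPKM at SR-12 h, against 294, 408 and 323 FPKM at SS-24 h, a 3.14-fold difference (adjusted p = 1.6e-06). Against 0 h, none of the 10 was called at SR-12 h, and 6 were lower at SS-24 h. Of 9 photosystem II subunits, 6 rose, 1 fell and 2 were not called, with a median of 1.24. PSBO, PSBP and PSBQ2, the proteins that shield the oxygen-evolving manganese cluster, had log2 fold changes of 1.29, 1.55 and 1.49. PSBO had 3920.4, 4113 and 4025 FPKM at SR-12 h, against 1474, 1827 and 1663 FPKM at SS-24 h.

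PSBQ1, annotated like PSBQ2 as oxygen-evolving enhancer protein 3, went the other way. It had 6.79, 5.33 and 7.45 FPKM at SR-12 h, against 31.8, 33.9 and 34.8 FPKM at SS-24 h, with a log2 fold change of −2.21 ± 0.34 (SE, adjusted p = 5.1e-05). At 0 h it stood at 1005, 1041 and 833.5 FPKM, so neither condition was near its 0 h level, with differences of −7.0 at SR-12 h and −4.79 at SS-24 h. Among photosynthesis genes it was the one with the widest gap to 0 h after sulfur return. PSBR, a photosystem II protein named here after its values were seen, had 4163, 4063 and 4201 FPKM at SR-12 h, against 4353, 4619 and 4393 FPKM at SS-24 h, and was not called (log2 fold change −0.10, and 0.00 under median-ratio scaling). Quantile normalization left fewer calls among these abundant genes, with 3 of 10 photosystem I and 1 of 9 photosystem II subunits called higher. These lists, like those for the Calvin cycle, ribosomal proteins, folding, sulfur and redox below, came from annotations in the study's table of highly expressed genes and hold only such genes.

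Photosynthetic electron transport genes were mixed. Of 13 genes for electron transport and the chloroplast ATP synthase, 4 rose, 3 fell and 6 were not called. PETF, the main ferredoxin, had 2732, 2846 and 2740 FPKM at SR-12 h, against 1241, 1274 and 1235 FPKM at SS-24 h, and the ferredoxin-NADP+ reductase FNR rose by 1.22. Both are needed to make NADPH. PETO and PETN, proteins of the cytochrome b6f complex, rose by 1.40 and 1.23. Plastocyanin (PETE), the copper protein that carries electrons to photosystem I, had 138, 117 and 234 FPKM at SR-12 h, against 949, 1065 and 1191 FPKM at SS-24 h and 90.8, 96.3 and 116.1 FPKM at 0 h. It was 6.55-fold lower at SR-12 h than at SS-24 h (log2 fold change −2.76 ± 0.19, SE, adjusted p = 1e-08), and its difference from 0 h, 0.63, was not called. Flavodoxin (Cz14g01090), which can stand in for ferredoxin under iron shortage, had 1.84, 1.42 and 2.36 FPKM at SR-12 h, against 29.6, 37.9 and 27.2 FPKM at SS-24 h. A second ferredoxin, FDX2, fell by 1.20 and was low in both conditions, with means of 1.83 FPKM at SR-12 h and 5.41 FPKM at SS-24 h, against 25.2 FPKM at 0 h. Under quantile normalization only 1 of the 13 was called higher, and PETF was not (0.42).

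Carbon fixation genes were higher by smaller amounts. Of 14 Calvin cycle genes, 4 rose and none fell, and 13 had non-overlapping, higher replicates at SR-12 h, beside 33% of all genes. The median log2 fold change was 0.87. FBP1 (fructose-1,6-bisphosphatase) and SBP (sedoheptulose-bisphosphatase), both of which regenerate the CO2 acceptor, rose by 1.22 and 1.21. The NADP-dependent glyceraldehyde-3-phosphate dehydrogenase (Cz11g09290) rose by 1.17 and RCA2, Rubisco activase, by 1.02. RBCS, the small subunit of Rubisco and the most abundant mRNA of the set, had 22533, 26298 and 25575 FPKM at SR-12 h, against 22482, 22703 and 22433 FPKM at SS-24 h. These replicates overlapped, and 0 h lay higher, at 30869 to 42870.0 FPKM, without a call in either condition. The count of 4 became 7 under median-ratio scaling and 1 under quantile normalization, and the RCA2 call was lost in 4 settings. In photorespiration, 1 of 6 genes rose, the aminotransferase Cz11g17130, by 1.15.

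Early light-induced proteins (ELIPs), chlorophyll-binding proteins of stressed thylakoids, were split. ELIP4 had 98.7, 127.9 and 250.4 FPKM at SR-12 h, against 907, 1127 and 1126 FPKM at SS-24 h, with a log2 fold change of −2.83 ± 0.34 (SE, adjusted p = 5.1e-06). ELIP6 had 9.80, 10.1 and 6.35 FPKM at SR-12 h, against 1.03, 0.71 and 1.12 FPKM at SS-24 h, a rise of 2.30. A further ELIP-type gene, UNPLg00452, fell by 1.08, a call lost without SR-12 h replicate 1 (−0.94), without SS-24 h replicate 2 (−0.99) and under median-ratio scaling (−0.97). The remaining 2 of the 5 were not called.

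**Figure D3:**
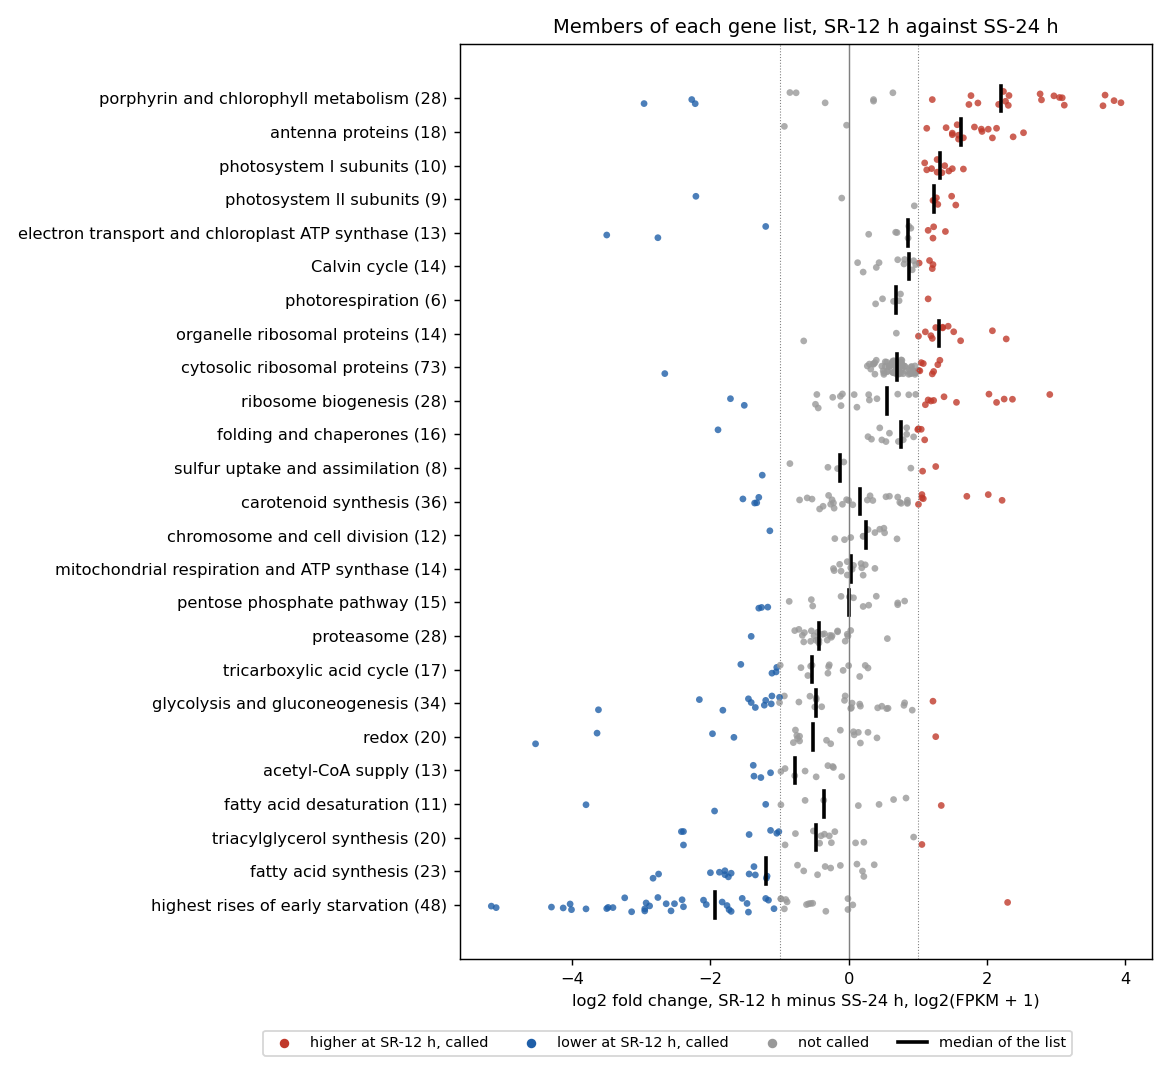
Log2 fold change, SR-12 h minus SS-24 h, of each member (points) of 25 gene lists, with the number of members in brackets and the median of each list as a black bar. Red and blue points passed the call and grey points did not, and the dotted lines mark −1 and 1. Medians run from 2.21 for porphyrin and chlorophyll metabolism to −1.94 for the highest rises of early starvation.

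Translation genes moved together but mostly by less than the threshold. Of 73 cytosolic ribosomal proteins, 8 were called higher (11%, beside 6.51% of all genes) and 1 lower (1.37%, beside 9.13%). By adjusted p alone 62 were higher, beside 24.5% of all genes. The median log2 fold change was 0.70. The list took 10.1, 11.1 and 9.79% of summed FPKM at SR-12 h, against 6.97, 6.58 and 6.79% at SS-24 h and 5.42, 5.56 and 6.41% at 0 h. Examples are S20e (Cz02g17070) at 1546, 1698 and 1556 FPKM at SR-12 h, against 637, 673 and 611 FPKM at SS-24 h, and S13e (Cz07g16040) with a log2 fold change of 1.29 ± 0.14 (SE, adjusted p = 1.9e-06). S12e (Cz09g18090) and L10e (Cz05g34280) rose by 1.23 and 1.21. Against 0 h, 18 of the 73 were higher at SR-12 h and 1 at SS-24 h. The count of 8 was sensitive to scaling, with 17 calls under median-ratio scaling, 5 where FPKM were rescaled to TPM and 2 under quantile normalization.

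One cytosolic ribosomal protein went against the list. S27e (Cz11g21140) had 267, 259 and 267 FPKM at SR-12 h, against 1856, 1384 and 1833 FPKM at SS-24 h and 311, 341 and 377 FPKM at 0 h. It was 6.4-fold lower at SR-12 h (log2 fold change −2.66 ± 0.12, SE, adjusted p = 1.2e-10). The gene was the only 1 of the 73 called higher at SS-24 h than at 0 h (2.29), and SR-12 h did not differ from 0 h by a call (−0.37).

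Among ribosomal proteins of the organelles, 12 of 14 were called higher and none lower, with a median of 1.31. S5 (Cz12g28110) had 397, 393 and 377 FPKM at SR-12 h, against 70.5, 92.3 and 76.5 FPKM at SS-24 h, a log2 fold change of 2.28 ± 0.09 (SE, adjusted p = 3.3e-11). L10 (Cz03g23160) rose by 2.08 and L29 (Cz03g38180) by 1.62. In the list of 11 translation factors 1 was called higher (9.09%, beside 6.51% of all genes). It was elongation factor Ts (Cz02g30200), a bacterial-type factor that recharges EF-Tu, at 356, 323 and 321 FPKM at SR-12 h, against 62.6, 84.2 and 72.2 FPKM at SS-24 h. The 28 ribosome biogenesis genes are a list chosen on SS-6 h against 0 h, with a range from −1.71 to 2.91. Of them, 11 rose (39.3%, beside 6.51% of all genes) and 2 fell (7.14%, beside 9.13%). The largest rise went to 71.2, 68.6 and 62.3 FPKM at SR-12 h, against 6.46, 9.59 and 8.51 FPKM at SS-24 h, in Cz06g06120, which has no name in the tables used. Against 0 h, 12 of the 28 were higher at SR-12 h and 3 at SS-24 h, with none lower in either.

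Protein folding and breakdown were covered by a list each. Of 16 folding genes, 4 rose (25%, beside 6.51% of all genes) and 1 fell (6.25%, beside 9.13%), with a median of 0.76. A cytosolic-type heat shock 70 kDa protein (Cz06g15020) had 1073, 986 and 1012 FPKM at SR-12 h, against 428, 525 and 483 FPKM at SS-24 h, and rose by 1.10. The other 3 calls, BiP-type Hsp70 (Cz17g14060), HtpG (Cz02g06070) and a cyclophilin (Cz08g10050), lay at 1.0 to 1.05. Only 1 of the 4 was left after rescaling to TPM, and 2 were left under quantile normalization, without SR-12 h replicate 1 and without SS-24 h replicate 3. The cyclophilin was not called without SR-12 h replicate 2 (0.98), nor HtpG without SS-24 h replicate 1 (0.93). Means at SS-6 h and SS-12 h were 1343 and 1185 FPKM for Cz06g15020 and 977 and 948 FPKM for HtpG, above their SR-12 h means (1024 and 728 FPKM). For Cz17g14060 (250 and 233 FPKM) and the cyclophilin (65.2 and 169 FPKM) they were below SR-12 h (475 and 296 FPKM). A Clp protease ATPase subunit (Cz10g08290), part of the machinery that unfolds proteins for degradation, had 87.6, 81.7 and 100.1 FPKM at SR-12 h, against 337, 340.2 and 327 FPKM at SS-24 h, and fell by 1.89. Of 28 proteasome genes, 1 (3.57%, beside 9.13% of all genes) was called lower and none higher. By adjusted p alone 18 were lower and 1 higher, beside 27.3% and 24.5% of all genes, and the median was −0.43. Their summed share was 0.432, 0.412 and 0.420% at SR-12 h, against 0.601, 0.617 and 0.606% at SS-24 h and 0.291, 0.274 and 0.286% at 0 h. SR-12 h therefore lay between the other conditions, and 16 of the 28 were called higher than at 0 h at SS-24 h, none at SR-12 h.

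GABA(A) receptor-associated protein (Cz07g23120) belongs to the ATG8 family, which in yeast coats the autophagosome. It was named after its values were seen. Its level was 198, 213 and 207 FPKM at SR-12 h, against 1112, 926 and 1082 FPKM at SS-24 h and 446, 437 and 491 FPKM at 0 h. The log2 fold change was −2.32 ± 0.13 (SE, adjusted p = 9.6e-10), and SR-12 h was also called lower than 0 h, by −1.15.

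Of the 8 genes annotated for sulfur uptake and assimilation, 2 (25%, beside 6.51% of all genes) rose and 1 (12.5%, beside 9.13%) fell. Their log2 fold changes ran from −1.25 to 1.26, with a median of −0.12. Transporter genes did not pass the test. The sulfate transporters Cz03g08070 and Cz03g08060 had means of 414 and 458 FPKM at SR-12 h, against 463 and 481 FPKM at SS-24 h, with overlapping replicates and log2 fold changes of −0.16 and −0.07. The sign of Cz03g08060 turned under median-ratio scaling (0.03). A transporter of the SLC13 family (Cz10g01050) had 1621, 1515 and 1500 FPKM at SR-12 h, against 1872, 1854 and 1986 FPKM at SS-24 h (−0.30, adjusted p = 0.2). Its annotation is a sodium-dependent dicarboxylate transporter, although the family includes sodium-coupled sulfate carriers in animals. Cysteine synthase (Cz03g05100), which joins sulfide to O-acetylserine, had 806, 773 and 780 FPKM at SR-12 h, against 1464, 1345 and 1457 FPKM at SS-24 h and 709, 786 and 806 FPKM at 0 h. Its replicates did not overlap and its adjusted p was 1.2e-06, but the log2 fold change of −0.85 was under the threshold (−1.36 under quantile normalization).

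The called rises were 2 enzymes of methionine metabolism. Adenosylhomocysteinase (Cz01g01020), which recycles the product of methyl transfers, had 1092, 1061 and 1120 FPKM at SR-12 h, against 423, 501 and 440 FPKM at SS-24 h and 347, 360.5 and 348 FPKM at 0 h. It rose by 1.26 ± 0.08 (SE, adjusted p = 3.6e-09). Methionine synthase (Cz11g24160) had 2220, 1994 and 2110 FPKM at SR-12 h, against 820.5, 1261 and 970.2 FPKM at SS-24 h, and rose by 1.07. Its call was lost without SS-24 h replicate 1 (0.93), after rescaling to TPM (0.99) and under quantile normalization (0.51). METM, S-adenosylmethionine synthetase, had 1068, 1070.1 and 1023 FPKM at SR-12 h, against 536, 605 and 557 FPKM at SS-24 h, and at 0.90 fell short of a call, which it reached under median-ratio scaling (1.0). All 3 were called higher than 0 h at SR-12 h and not at SS-24 h. Such levels were also reached without sulfur. SS-12 h means were 1222 FPKM for adenosylhomocysteinase, 2828 FPKM for methionine synthase and 1070 FPKM for METM. The SR-12 h means were 1091, 2108 and 1053 FPKM, and those of SS-48 h 523, 229 and 535 FPKM. A selenium-binding protein (Cz02g00040) fell by 1.25.

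Redox genes held some of the widest falls. Of 20, 4 fell (20%, beside 9.13% of all genes) and 1 rose (5%, beside 6.51%). Cz14g08160, annotated as maleylacetoacetate isomerase, an enzyme of the glutathione transferase family, had 24.0, 20.2 and 25.5 FPKM at SR-12 h, against 583, 550.3 and 535 FPKM at SS-24 h and 978.5, 1018 and 1046 FPKM at 0 h. Its log2 fold change was −4.53 ± 0.11 (SE, adjusted p = 3.4e-13), and SS-24 h was not called against 0 h (−0.87) while SR-12 h was (−5.40). Peroxiredoxins, which reduce hydrogen peroxide and lipid peroxides, moved both ways. Cz08g25270 had 83.6, 94.0 and 132.0 FPKM at SR-12 h, against 1270, 1261 and 1294 FPKM at SS-24 h, a 12.4-fold fall, and 618, 594 and 667 FPKM at 0 h. The 1-Cys peroxiredoxin Cz08g26250 fell by 1.97, and Cz09g23180 rose by 1.26. A thioredoxin (Cz09g19090) had 68.7, 86.4 and 79.6 FPKM at SR-12 h, against 233, 265 and 249.7 FPKM at SS-24 h.

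Fatty acid synthesis, which supplies acyl chains for membranes and TAG, was lower at SR-12 h. Of 23 genes, 13 fell and none rose, with a median log2 fold change of −1.19. This list and those for desaturation, TAG, carotenoids and central carbon come from the study's table of pathway genes. The list took 0.206, 0.200 and 0.201% of summed FPKM at SR-12 h, against 0.384, 0.371 and 0.394% at SS-24 h and 0.265, 0.254 and 0.259% at 0 h. Acetyl-CoA carboxylase makes malonyl-CoA, the first dedicated step, and all 5 genes of its plastid complex fell. The carboxyltransferase subunit α-CT had 54.6, 49.2 and 51.3 FPKM at SR-12 h, against 205, 197 and 226 FPKM at SS-24 h, and fell by 2.0 ± 0.15 (SE, adjusted p = 2.9e-08). BCCP2, BC, β-CT and BCCP1 fell by 1.74, 1.37, 1.35 and 1.18. ACCase, the separate multidomain carboxylase, had 90.8, 93.7 and 92.2 FPKM at SR-12 h, against 79.0, 83.5 and 74.1 FPKM at SS-24 h, and was not called (0.22, adjusted p = 0.24).

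Further genes of fatty acid synthesis fell to different extents. HAD, the dehydratase of the elongation cycle, had 27.3, 24.3 and 22 FPKM at SR-12 h, against 186, 176 and 176 FPKM at SS-24 h and 165, 165 and 180.1 FPKM at 0 h. It was 7.32-fold lower than at SS-24 h (log2 fold change −2.83 ± 0.12, SE, adjusted p = 3.6e-11). MCT1, which loads malonyl groups onto the acyl carrier protein, had 20.9, 18.2 and 16.9 FPKM at SR-12 h, against 131.5, 122.7 and 139.0 FPKM at SS-24 h. For both genes SR-12 h was also called below 0 h, by −2.75 for HAD and −2.17 for MCT1, while SS-24 h was not called. KAS I and KAS III, the condensing enzymes, fell by 1.79 and 1.44, and the reductase KAR1 by 1.70. ENR, ACP1 and ACP2 were not called. Over the 23 genes, SR-12 h had 5 lower and 1 higher than 0 h, beside 8.42% and 4.99% of all genes. SS-24 h had none lower and 1 higher, beside 6.89% and 4.57%.

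Among 11 desaturases, 3 fell (27.3%, beside 9.13% of all genes) and 1 rose (9.09%, beside 6.51%). FAD2, the omega-6 desaturase, had 0.88, 3.44 and 1.42 FPKM at SR-12 h, against 39.2, 32.9 and 38.9 FPKM at SS-24 h and 5.06, 4.48 and 4.98 FPKM at 0 h. Its log2 fold change was −3.80 ± 0.28 (SE, adjusted p = 2.2e-08). SAD1, which makes oleate on the acyl carrier protein, had 39.9, 44.1 and 37.6 FPKM at SR-12 h, against 151, 149 and 175 FPKM at SS-24 h, and fell by 1.94. A delta-4 desaturase for the galactolipid MGDG (UNPLg00012) rose by 1.34, with 65.5, 64.6 and 63.2 FPKM at SR-12 h, against 24.5, 26.3 and 23.9 FPKM at SS-24 h. The study's fatty acid elongation list, drawn from its comparison of SR-12 h with SS-48 h and so sharing the SR-12 h samples, had 4 of 20 higher and 5 lower, from −3.76 to 2.22. Its count of 4 became 7 under median-ratio scaling and 2 among genes with a mean of at least 5 FPKM.

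In TAG synthesis and storage, 7 of 20 genes fell (35%, beside 9.13% of all genes) and 1 rose (5%, beside 6.51%). MLDP, the major protein coat of algal lipid droplets, had 108, 116 and 113 FPKM at SR-12 h, against 620.5, 550.4 and 652 FPKM at SS-24 h and 206, 193 and 197 FPKM at 0 h. It fell by 2.42 ± 0.15 (SE, adjusted p = 3.9e-09), and the SR-12 h replicates lay below those of 0 h without a call (−0.82). PAP3, a phosphatidate phosphatase that makes diacylglycerol, had 34.4, 47.7 and 60.6 FPKM at SR-12 h, against 242, 241 and 260 FPKM at SS-24 h and 50.02, 44.9 and 44.4 FPKM at 0 h. SR-12 h and 0 h overlapped for it. The acyltransferases that complete TAG differed among themselves. DGTT1 had 8.17, 6.00 and 9.07 FPKM at SR-12 h, against 50.1, 38.6 and 45.3 FPKM at SS-24 h, and fell by 2.39. DGTT8, DGTT7, DGAT1B and DGAT1A fell by 1.44, 1.13, 1.04 and 1.01. The DGAT1A call was lost without SR-12 h replicate 1 (−0.98) and without SS-24 h replicate 1 (−0.94), and both DGAT1 calls were lost under median-ratio scaling (−0.94 for DGAT1B, −0.91 for DGAT1A) and quantile normalization (−0.99 for DGAT1B, −0.93 for DGAT1A). DGTT5 had 71.8, 84.6 and 69.99 FPKM at SR-12 h, against 104.8, 89.4 and 105.8 FPKM at SS-24 h and 52.9, 43.7 and 52.7 FPKM at 0 h. Its log2 fold change of −0.40 (adjusted p = 0.0036) was under the threshold. GPAT1, which starts glycerolipid assembly, rose by 1.06, a call lost without SS-24 h replicate 1 and after rescaling to TPM (0.98 in both).

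A pair of genes annotated as perilipin-4, in mammals a lipid droplet coat protein, had the largest loss of FPKM among annotated genes. Cz14g00020 had 861, 1002 and 1223 FPKM at SR-12 h, against 4083, 4399 and 4532 FPKM at SS-24 h and 989, 1055 and 1094 FPKM at 0 h, and fell by 2.09 ± 0.16 (SE, adjusted p = 3.9e-08). Cz03g35150 had 1069, 1168 and 1357 FPKM at SR-12 h, against 3691, 3843 and 4108 FPKM at SS-24 h, and fell by 1.70. SR-12 h was not called against 0 h for either, and SS-24 h was called higher for both.

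Carotenoid genes moved both ways. Of 36, 7 rose (19.4%, beside 6.51% of all genes) and 4 fell (11.1%, beside 9.13%), with a median of 0.17. LCYe, lycopene epsilon cyclase, which opens the branch to lutein, had 140, 120.3 and 123 FPKM at SR-12 h, against 21.2, 33.9 and 26.1 FPKM at SS-24 h and 76.7, 83.7 and 91.3 FPKM at 0 h. It was 4.73-fold higher at SR-12 h (log2 fold change 2.22 ± 0.13, SE, adjusted p = 2.3e-09). PDS, phytoene desaturase, had 57.2, 49.3 and 49.7 FPKM at SR-12 h, against 10.98, 11.9 and 13.3 FPKM at SS-24 h, and rose by 2.02. The cytochrome P450 hydroxylases CYP97A (2 genes) and CYP97C, GGPPS and CMK also rose, by 1.01 to 1.71. LCYb, lycopene beta cyclase of the branch to beta-carotene, had 41.2, 36.9 and 40.4 FPKM at SR-12 h, against 58.6, 59.4 and 63.3 FPKM at SS-24 h, and was not called (−0.60, adjusted p = 2.1e-05). BKT1, the ketolase that leads to astaxanthin, had 43.0, 43.8 and 46.2 FPKM at SR-12 h, against 50.4, 57.6 and 51.5 FPKM at SS-24 h (−0.26, adjusted p = 0.2). ZEP, zeaxanthin epoxidase, stood at 50.1, 47.2 and 52.2 FPKM at SR-12 h, against 28.7, 30.3 and 28.98 FPKM at SS-24 h, and at 0.74 was not called. The genes that fell were IPPI1 and IPPI2, isopentenyl diphosphate isomerases, AACT, acetoacetyl-CoA thiolase, and an acyltransferase (Cz02g29020), by 1.3 to 1.53. Where FPKM were rescaled to TPM, 4 genes were called higher, without CYP97C, GGPPS and CMK, and CMK was not called without SR-12 h replicate 1 either. No carotenoid gene differed from 0 h by a call at SR-12 h, and 4 of 36 were lower at SS-24 h, beside 6.89% of all genes.

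Called central carbon genes were lower, with 1 exception. Of 34 glycolysis and gluconeogenesis genes, 11 fell (32.4%, beside 9.13% of all genes) and 1 rose (2.94%, beside 6.51%). The gene that rose was FBP1, which is also on the Calvin cycle list. PK6, a pyruvate kinase, had 15.3, 14.28 and 20.04 FPKM at SR-12 h, against 219.6, 192 and 226 FPKM at SS-24 h and 90.6, 86.3 and 85.1 FPKM at 0 h. It was 12.9-fold lower (log2 fold change −3.62 ± 0.12, SE, adjusted p = 8.3e-12). The NAD-dependent GAPDH had 152, 151 and 186 FPKM at SR-12 h, against 738, 706.6 and 734 FPKM at SS-24 h, and fell by 2.16. FBA4, an aldolase, and PEPCK, phosphoenolpyruvate carboxykinase, fell by 1.82 and 1.45. In the supply of acetyl-CoA, 4 of 13 genes fell (30.8%, beside 9.13% of all genes). Among them were PDHC3 (−1.13) and PDHC4 (−1.38), E1 alpha and E1 beta of pyruvate dehydrogenase. The other E1 genes, PDHC1 (−0.22) and PDHC2 (−0.23), were not called. ACS2, acetyl-CoA synthetase, and ALDH2, aldehyde dehydrogenase, fell by 1.37 and 1.27 and were also below 0 h. Of 17 tricarboxylic acid cycle genes, 4 fell (23.5%, beside 9.13% of all genes). Citrate synthase CIS2 fell furthest, with 124, 122 and 130.1 FPKM at SR-12 h, against 371.5, 350.3 and 391 FPKM at SS-24 h. SCSb, SDH3 and IDH1 fell by 1.11, 1.05 and 1.04, and 2 of the 4 calls were left under median-ratio scaling and 1 under quantile normalization. The IDH1 call was also lost without SR-12 h replicate 2 or SS-24 h replicate 2 (−0.99 in both). In the pentose phosphate pathway 3 of 15 fell (20%, beside 9.13% of all genes). They were G6PD1 (−1.17), which makes NADPH, TAL3 (−1.3) and RPI1 (−1.26).

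Other groups had at most 1 called gene each. None of 14 genes for mitochondrial respiration was called, with a median of 0.04. ATP2, the beta subunit of the ATP synthase, had 647, 606 and 652.5 FPKM at SR-12 h, against 535, 589 and 556 FPKM at SS-24 h (0.18, adjusted p = 0.12). None of 3 histone genes and none of 4 starch genes was called. By adjusted p alone, 3 of the 4 starch genes were lower and 1 was higher, beside 27.3% and 24.5% of all genes. Of 12 genes for chromosomes and cell division 1 was called lower (8.33%, beside 9.13% of all genes). It was a kinesin-like gene (Cz03g24220) at 1.77, 2.31 and 2.37 FPKM at SR-12 h, against 6.08, 7.60 and 4.46 FPKM at SS-24 h. That call was lost without SS-24 h replicate 2 (−0.99). Among 8 tubulin, actin and flagellar genes, 1 was called higher (12.5%, beside 6.51% of all genes) and none lower. It was a flagellar-associated protein (Cz10g29070), which rose by 1.78, with 1270, 1219 and 1148 FPKM at SR-12 h, against 326, 394 and 339 FPKM at SS-24 h. The list took 0.817, 0.782 and 0.805% of summed FPKM at SR-12 h, against 0.537, 0.624 and 0.553% at SS-24 h.

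Most genes with the highest rises in early starvation were lower at SR-12 h than at SS-24 h. Of 48 such genes, chosen by the study on SS-6 h against 0 h, 34 fell and 1 rose, with a median log2 fold change of −1.94. They took 0.0550, 0.0620 and 0.0678% of summed FPKM at SR-12 h, against 0.493, 0.408 and 0.511% at SS-24 h and 0.0737, 0.0820 and 0.0866% at 0 h. SR-12 h exceeded 0 h in 4 and fell below it in 12 of them, while SS-24 h exceeded it in 30 and fell below it in 2. The list was chosen against the same 0 h libraries, so these counts against 0 h are not independent of the choice, here and for the other lists from SS-6 h (antenna, ribosome biogenesis, proteasome, cell division and peroxidases). The widest fall was in Cz12g01050, annotated as uroporphyrinogen decarboxylase, an enzyme of the tetrapyrrole pathway. It had 0.93, 1 and 1.07 FPKM at SR-12 h, against 84.2, 57.1 and 74.6 FPKM at SS-24 h and 6.44, 7.47 and 6.44 FPKM at 0 h (log2 fold change −5.17 ± 0.40, SE, adjusted p = 3.7e-08). Of 3 peroxidases of early starvation, 2 fell, Cz15g21190 by 2.41 and Cz05g01060 by 1.54. The counterpart list of 49 lowest falls in early starvation had 1 higher and 1 lower, with a median of 0.23. Each was 2.04% of the list, beside 6.51% and 9.13% of all genes, and neither call held in every setting.

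**Figure D4:**
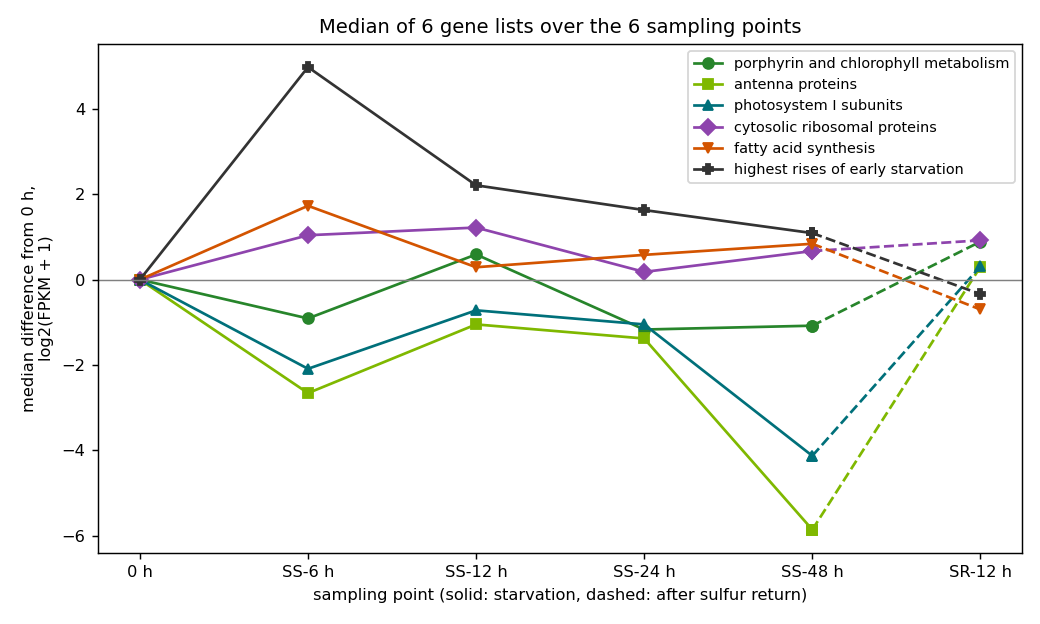
Median difference from 0 h, in log2(FPKM + 1), of 6 gene lists at each sampling point, solid through starvation and dashed to SR-12 h. Antenna proteins have medians of 0.30 at SR-12 h and −1.38 at SS-24 h, and the highest rises of early starvation have −0.34 at SR-12 h and 1.63 at SS-24 h.

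The sampling points in between show that SS-24 h was not the last state before sulfur return. Antenna genes had median differences from 0 h of −2.66, −1.05, −1.38 and −5.86 after 6, 12, 24 and 48 h without sulfur, and of 0.30 at SR-12 h. Photosystem I subunits had −2.09, −0.72, −1.05, −4.13 and 0.31 at those points. Porphyrin genes had −0.91, 0.59, −1.17, −1.08 and 0.89, so their SS-12 h median was also above 0 h. Cytosolic ribosomal proteins had 1.04, 1.22, 0.18, 0.67 and 0.92, with SS-24 h closest to 0 h. Fatty acid synthesis had 1.73, 0.29, 0.58, 0.84 and −0.70, and SR-12 h was its only point below 0 h.

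Over the whole table, none of the 10 largest rises among genes with a mean of at least 1 FPKM and non-overlapping replicates had a name in the tables used. The first was Cz16g13070, at 366, 334 and 334 FPKM at SR-12 h, against 15.4, 24.5 and 20.8 FPKM at SS-24 h and 67.0, 68.4 and 73.3 FPKM at 0 h (log2 fold change 4.05 ± 0.13, SE, adjusted p = 5.7e-12). Of the 10, 4 belong to the porphyrin list, which was drawn through SR-12 h, so this overlap is not independent of the choice. Among the 10 largest falls only Cz12g01050 was annotated. Cz04g10030 had 0.24, 0.08 and 0.08 FPKM at SR-12 h, against 70.6, 39.3 and 60.4 FPKM at SS-24 h and 5.80, 5.74 and 7.54 FPKM at 0 h, the widest fall of all (−5.63 ± 0.31, SE). Cz06g10120 had 8.61, 7.94 and 10.8 FPKM at SR-12 h, against 328, 403 and 353 FPKM at SS-24 h. Differences in whether a gene was listed at all were small, with 18 genes listed in all SR-12 h and no SS-24 h libraries, the highest at a mean of 2.78 FPKM, and 14 the other way, the highest at 2.09 FPKM.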

How the data were processed

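Poly-A RNA of 18 cultures was sequenced as single-end reads. The authors filtered the reads, mapped them with HISAT (genome) and Bowtie2 (reference genes), and deposited FPKM from RSEM, to 0.01 per gene and sample (versions not given in the sources used here). Strand was not stated, so overlapping and antisense genes cannot be told apart. A gene not listed in a sample was set to 0, and 15220 genes were tested. Samples were grouped by their labels. Log2(FPKM + 1) of 18 samples in 6 groups was fitted with limma 3.58.1 (lmFit, contrasts.fit, eBayes with trend) in R 4.3.3, with no replicate block, and the fit was tested on simulated data. Tables and plots were made with Python 3.11.15, pandas 2.3.3, numpy 2.4.6 and matplotlib 3.10.9. P was two-sided and Benjamini-Hochberg adjusted over all genes. It rests on the spread between cultures of the same condition, pooled over the 6 groups and drawn toward that of genes of like level. Absolute depth was not used, and low FPKM rest on few reads.

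The 33 lists (601 genes) and their names come from the study's tables, and the lists and tests were chosen with earlier results of these data known. From each list up to 4 of the largest called rises and falls were selected (the 2 highest genes where none was called). All sulfur genes, the genes the study names, and the extremes of the whole table were added. Not every selected gene is given above (KAR2, LHC2, LHC7 and PSAL are among those left out), and no rule set which were left out. Further list members given beside these (KAS I, KAS III, KAR1, ENR, ACP1, ACP2, DGTT7, DGAT1A, DGAT1B, CYP97C, GGPPS, CMK, PDHC1 and PDHC2) were chosen after their values were seen. The gene sequences and positions are not given because no genome was used. Alternatives were other pseudocounts (0.1, 0.5), minimum means of 1 and 5 FPKM, 3 other scalings, a fit of 6 samples, a replicate block, no trend and leaving out each replicate.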

Additional observations from a re-analysis of the deposited data

How the results depend on the processing

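The counts of genes called stayed within 1.5 times the values given under all alternatives, at 852 (rescaling to TPM) to 1210 (median-ratio scaling) higher and 1214 (median-ratio scaling) to 1570 (rescaling to TPM) lower. Leaving out 1 replicate gave 957 to 1055 higher and 1348 to 1442 lower. Of the 2380 called genes, 2183 to 2380 were also called per setting. The median log2 fold change of all genes, −0.008, was −0.028 and −0.046 with a mean of at least 1 and 5 FPKM, 0.050 under median-ratio scaling, −0.070 after rescaling to TPM, 0.025 under quantile normalization and −0.016 with only the 6 samples fitted. Without 1 replicate it was −0.020 to 0.000. Of the 155 called genes covered by the naming rule or added to it, 119 kept the call in all settings and 36 lost it in at least 1, with 25 losses under quantile normalization, 10 after rescaling to TPM and 5 under median-ratio scaling. Signs turned for 3 genes, none called: Cz03g08060 (0.03) and PSBR Cz09g21140 (0.00) under median-ratio scaling, and LHCSR Cz16g02040 (0.07 under median-ratio scaling, 0.09 under quantile normalization). The causes were not tested. Samples with the same replicate number did not deviate together (r across genes −0.034, −0.058 and 0.025). This cannot show whether the numbers stand for paired cultures, and the main fit used no pairing. With a replicate block 991 genes were called higher and 1387 lower. FPKM carry no counts, so the precision of low genes rests on the spread between replicates, pooled over the 6 groups and drawn toward that of other genes.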
